A study of Rattus norvegicus with 79 samples.

Results

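The receptors for noradrenaline and adrenaline, dopamine, histamine, serotonin and acetylcholine were followed in the CA1 field of the rat hippocampus across 10 groups of rats that differed in age and in water maze training. Members were all genes whose symbol in the array's probe-to-gene table starts with Adra, Adrb (the kinase genes Adrbk left out), Drd, Hrh, Chrm or Chrn, or with Htr and a digit, taken only from probe sets with a single symbol. This gave 68 probe sets for 48 genes, out of 8740 probe sets that were not controls and 4736 named genes. Of these, 36 probe sets for 32 genes were bright enough to be tested. The families were adrenergic (8 genes), dopamine (5), histamine (2), serotonin (13), muscarinic (5) and nicotinic (15).

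All rats were male Fischer 344 animals housed 2 per cage, with 1 array per animal, and were killed 24 h after their last trial. The young rats, 3 months old, comprised 3 cage controls that did not swim, 6 yoked rats that swam without any platform, 4 trained to a visible platform and 6 trained to a hidden one, which a rat finds by learning its place. The aged rats, 24 months old, comprised 5 cage controls, 8 yoked rats, 8 trained to a visible platform and 39 trained to the hidden platform. Of the last, 13 were labelled learning unimpaired, 10 learning impaired and 16 carried the letter B in place of either, which the labels do not explain. Yoked and cage rats were the controls for training, and no drug or genetic change separated the groups. RNA came from a punch of the CA1 cell layer and was amplified in 2 rounds before hybridisation.

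Monoamines and acetylcholine reach CA1 through axons of cells whose bodies lie elsewhere (noradrenaline from the locus coeruleus, serotonin from the raphe, histamine from the hypothalamus, acetylcholine largely from the septum), so local RNA reports the receiving side of these systems. Most of the receptors are coupled to G proteins: some raise cyclic AMP through Gs, others lower it through Gi, and others act on phospholipase C through Gq. Nicotinic receptors and the serotonin receptor Htr3a are ion channels instead, the former built of alpha and beta subunits in the brain. In hippocampus these receptors are known for tuning excitability and synaptic plasticity. Axon terminals of the afferent cells can carry receptors whose RNA is made in the distant cell body and is not in a CA1 punch.

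Values were signal, a linear array brightness computed by the authors and scaled to a common level on every array. The signal of a probe set depends on its probes as well as on its RNA, so levels are compared between rats and never between genes. The median signal over all probe sets of an array ranged from 99.3 to 346.65. The median Spearman correlation of an array with the others was under 0.85 on 14 of the 79 arrays: 2 of 3 young cage, 2 of 4 young visible platform, 1 of 6 young hidden platform, 1 of 5 aged cage, 1 of 8 aged yoked, 4 of 8 aged visible platform, 1 of 13 unimpaired, 2 of 10 impaired and 0 of 16 B arrays. The median array signal was 229.9 on these arrays (median over the 14) against 132.6 over the other 65. The receptor probe sets read high on them on average. Their mean log2(signal + 15) over the 36 tested probe sets ranged from 7.787 to 9.304 (median 8.623) on the 14 arrays. It ranged from 7.069 to 8.43 (median 7.713) on the other 65. Not all probe sets read high on the 14 arrays. Leaving these arrays out moved the median impaired minus unimpaired difference from 0.31 to 0.17 over the 2622 dimmer tested probe sets. Over the 2622 brighter ones it moved the other way, from -0.22 to -0.02. The median B minus impaired difference moved from -0.35 to -0.15 (dimmer) and from 0.25 to 0.02 (brighter). Values without these 14 arrays, called the low arrays below, are therefore given beside the differences of receptors past the threshold or of smallest p. They are not given for marker and pathway genes, for families or within a training group. The part of array quality in the results was not tested beyond this. The CA1 pyramidal marker Hpca gave a mean signal of 10495 and Pou3f1 one of 2188. Camk2a, also abundant in these cells, gave only 110.1 on its probe set, so that a low signal did not show that a transcript was absent. Skeletal muscle genes, which CA1 should lack, gave mean signals up to 1171 (Myh1). A bright signal therefore did not show that a transcript was present.

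**Figure D1:**
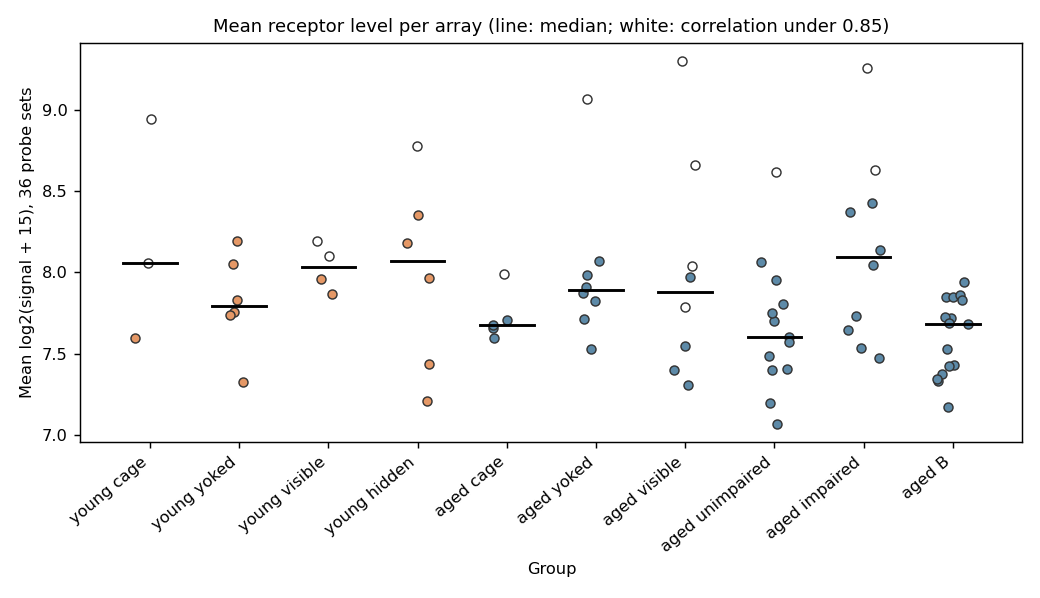
Mean log2(signal + 15) over the 36 tested receptor probe sets (y axis) for each of the 79 arrays, by group (x axis), with a line at each group's median; white points are the 14 arrays with a median correlation under 0.85. White points lie between 7.787 and 9.304, and the 16 B arrays, none of them white, between 7.17 and 7.944.

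Many of the receptors were dim. The median of the members' mean signals was 120.1, against 168.4 over all 8740 probe sets. The lowest mean signal that entered a test was 116.9, and 32 of the 68 receptor probe sets (47.1%) lay below it. Just inside that limit stood Htr7 at 116.9 and Chrna4 at 119.0, and just outside it a second probe set of Adra2a at 116.3. Only 3 probe sets lay in the brightest 20% of the array and 15 in the dimmest 20%. These 3 were Chrm3 (2217), Drd3 (1667) and Htr5b (1454).

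All 8 adrenergic genes were tested. The Gq-coupled alpha-1 receptors had mean signals of 182 (Adra1a), 127 (Adra1b) and 532 (Adra1d). The Gi-coupled alpha-2 receptors, which include the autoreceptors of noradrenergic terminals, had 331 (Adra2a), 244 (Adra2b) and 334 (Adra2c). The Gs-coupled beta receptors had 133 for Adrb1 and 481 for Adrb3, the latter best known from fat tissue. Of the dopamine receptors, the Gs-coupled Drd1 (143) and Drd5 (259) and the Gi-coupled Drd3 (1667) and Drd4 (136) were tested, while the Gi-coupled Drd2 (46) was too dim. Both histamine receptors, the Gq-coupled Hrh1 (30.6) and the Gs-coupled Hrh2 (87.5), were too dim to test.

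Of 13 serotonin receptor genes, 7 were tested: Htr1d (158), Htr2b (127), Htr3a (585), Htr5a (212), Htr5b (1454), and the Gs-coupled Htr6 (227) and Htr7 (117). The 6 below the limit included Htr1a (81.4), the Gi-coupled receptor for which CA1 pyramidal cells are known, with Htr1b (68.3), Htr1f (31), Htr2a (48.2), Htr2c (55.1) and Htr4 (89.8). The 5 muscarinic genes were all tested. The Gq-coupled Chrm1, Chrm3 and Chrm5 had mean signals of 135, 2217 and 402, and the Gi-coupled Chrm2 and Chrm4 had 136 and 364. Of 15 nicotinic genes 8 were tested. These were the neuronal subunits Chrna2 (158), Chrna3 (121), Chrna4 (119), Chrna7 (289.9) and Chrnb4 (458) and the muscle subunits Chrna1 (159), Chrnb1 (129.6) and Chrng (598). Chrna5 (50.8), Chrna6 (88.5), Chrna9 (91.2), Chrnb2 (48.8), Chrnb3 (57.9), Chrnd (97.7) and Chrne (68.6) were not.

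**Figure D2:**
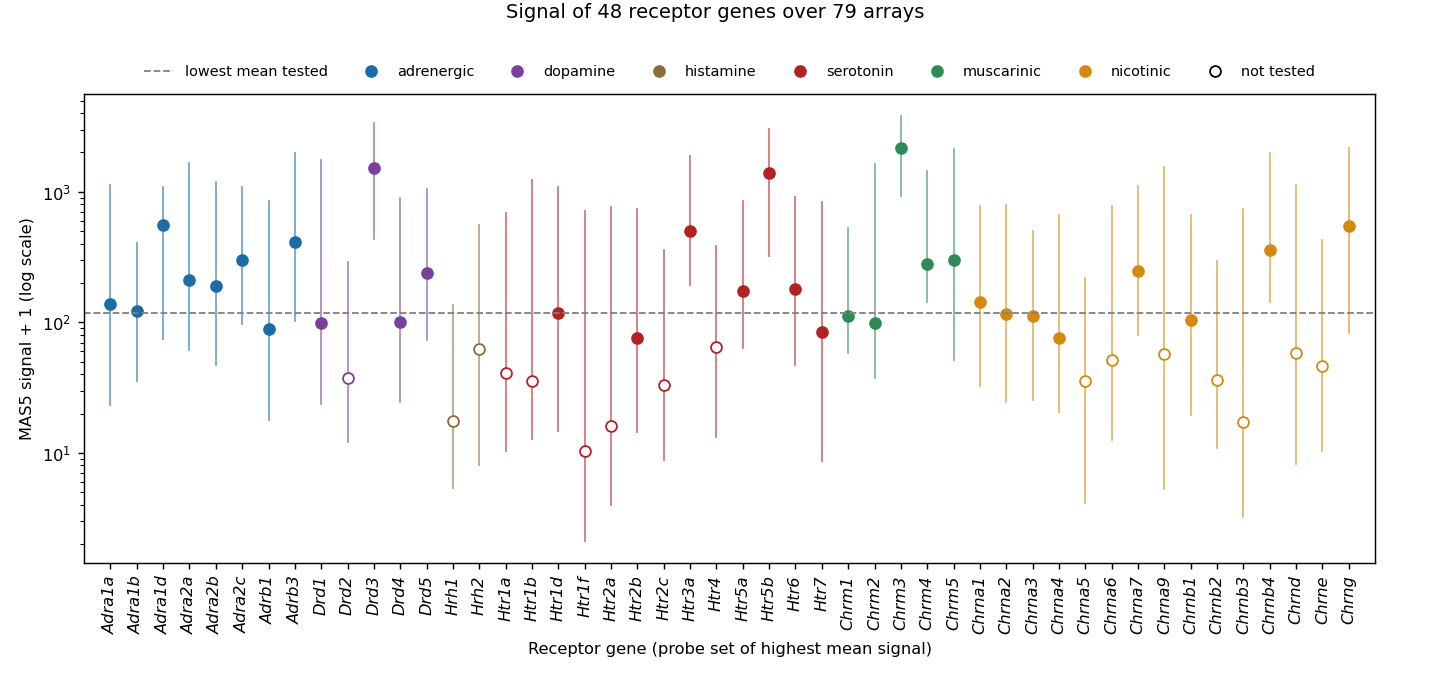
MAS5 signal plus 1 (log y axis) of the 48 receptor genes (x axis), each by its probe set of highest mean signal: points are medians over 79 arrays, lines run from the lowest to the highest array, colours give the family and open points mark the 16 genes not tested. The dashed line is the lowest mean signal that was tested, 116.9; medians can lie below it because a few high arrays raise a mean.

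Genes with several probe sets showed how far brightness depends on the probes. Of 15 such genes, 4 had probe sets whose mean signals differed more than 5 times: Drd3 (1667 and 60.5), Chrm3 (2217 and 124), Htr3a (585, 88.1 and 43.5) and Chrm4 (364 and 35.8). Below, each gene stands for its brightest probe set unless another is named, and the members of smallest p in a comparison are ranked over these probe sets.

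The first question was which receptors differed anywhere among the 10 groups. At an adjusted p under 0.05 (limma, moderated F test on 9 degrees of freedom, Benjamini-Hochberg adjustment over 5244 probe sets), 4 of 36 receptor probe sets passed: Adrb3, Adra1d, Chrna4 and Htr3a. That is 11.1% of the receptors, where 25% of all tested probe sets passed. The count was not stable: it was 1 (14.5% of all probe sets) with quantile normalization and 23 (74.8% of all) with array weights, and ran from 1 to 6 when single rats were left out. Without the 14 arrays of low correlation 5 passed (26.4% of all probe sets did): Adra1d, Chrna4 and Htr3a again, with Chrm3 and Chrng, while Adrb3 had an adjusted p of 0.0589. P-values here come from setting differences between group means against the spread between animals within a group. Shared cages were not modelled.

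Adrb3 read 454, 791 and 1543 in the 3 young cage rats and 336, 395, 693.5 and 716 in the 4 young visible platform rats. In yoked young rats its signal ran from 352 to 642.5 with a median of 379.7, and in young hidden platform rats from 150.4 to 587 with a median of 346.5. The 5 aged cage rats read 335, 411, 431.5, 456 and 471. Among young rats, cage controls thus held the highest median, and the 2 highest of their values came from arrays of low correlation. In the aged rats that swam the signal ran from 405 to 848 with a median of 510.3 (yoked), from 187 to 1998 with a median of 477 (visible platform), from 138 to 667 with a median of 323 (unimpaired), from 319.7 to 1181 with a median of 582 (impaired) and from 101 to 523.5 with a median of 296.5 (B). The B rats had the lowest median of the 10 groups, and all these ranges overlapped. The F statistic was 3.83 (adjusted p = 0.00609).

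Adra1d, an alpha-1 adrenergic receptor, was low in young cage rats, which read 102, 163 and 185.5. The 4 young visible platform rats read 105, 312, 654 and 657, and the values of 105 and 312 came from arrays of low correlation. Young yoked rats ran from 73.3 to 824 with a median of 303.5, and young hidden platform rats from 90.2 to 751 with a median of 550.0. The 5 aged cage rats read 342, 389, 580.5, 606 and 799.7, all above the young cage rats. The young cage values of 102 and 185.5 came from arrays of low correlation. Aged minus young cage rats differed by 1.73 ± 0.62 (SE, log2) here and by -0.36 ± 0.56 (SE) on the gene's second probe set. In other aged rats the signal ran from 165 to 781 with a median of 524 (yoked), from 98.7 to 877 with a median of 599 (visible platform), from 164 to 721 with a median of 557 (unimpaired), from 189 to 847 with a median of 508 (impaired) and from 334 to 1094 with a median of 819.6 (B). The B rats had the highest median. The F statistic was 3.10 (adjusted p = 0.0204). A second Adra1d probe set did not pass (F = 1.46, adjusted p = 0.268), and without young cage rat 70 the first had an adjusted p of 0.0718.

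Chrna4, the alpha-4 subunit of the main heteromeric nicotinic receptor of the brain, was a dim member. It read 106, 138.5 and 153 in young cage rats, 32.9, 67.6, 94.7 and 167 in young visible platform rats and 52.7, 75.5, 106, 134 and 142 in aged cage rats. Impaired rats ran from 74.6 to 577 with a median of 149 and B rats from 19.5 to 159.9 with a median of 47.6. Unimpaired rats, in between, ran from 22.2 to 515 with a median of 66.6. Young yoked rats ran from 20.9 to 131 with a median of 54.8 and young hidden platform rats from 36.4 to 397 with a median of 84.8, while aged yoked and aged visible platform rats ran from 52.2 to 667 with a median of 119.8 and from 28.9 to 328 with a median of 50.4. The groups overlapped, the F statistic was 2.65 and the adjusted p 0.0419. Leaving out 1 of the 79 rats at a time ended the call in 22 cases, with the highest adjusted p, 0.0738, without impaired rat 87.

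Htr3a, a subunit of the serotonin-gated channel found in interneurons, read 556.5, 586 and 1069 in young cage rats, 297, 763, 831 and 888 in young visible platform rats and 391, 392, 416, 737 and 748 in aged cage rats. Young yoked and young hidden platform rats ran from 479 to 937 with a median of 655 and from 344 to 1065 with a median of 819. Aged yoked and aged visible platform rats ran from 346 to 1315 with a median of 539.6 and from 295 to 1868 with a median of 682. Unimpaired, impaired and B rats ran from 194 to 805 with a median of 420.0, from 389 to 961 with a median of 549.8 and from 319 to 578 with a median of 431 respectively. Aged cage, unimpaired and B rats had the lowest medians, with overlap throughout. The F statistic was 2.56 and the adjusted p 0.0491, the weakest of the 4. Leaving out 1 rat at a time ended the call in 55 of 79 cases, with the highest adjusted p, 0.0767, without unimpaired rat 89. In a fit over all 8740 probe sets, 2 of the 32 receptor probe sets too dim for the main test passed. They belonged to Htr2c and Htr3a, beside 2.32% of all 3496 probe sets left out as dim.

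**Figure D3:**
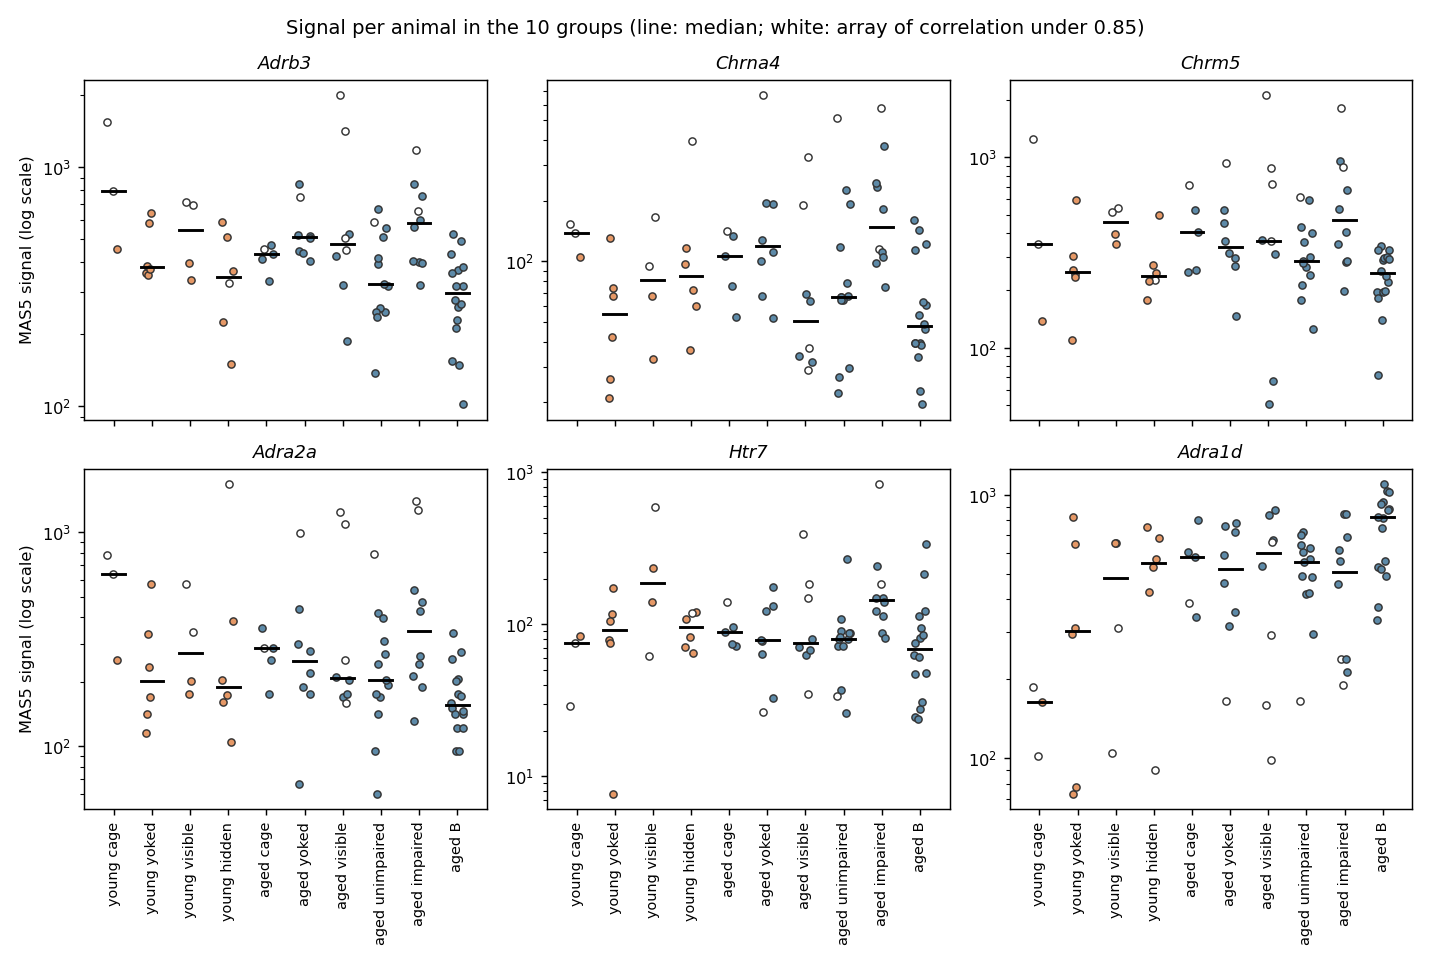
MAS5 signal (log y axis) of Adrb3, Chrna4, Chrm5, Adra2a, Htr7 and Adra1d in each of the 79 rats, by group (x axis); lines are group medians and white points are the 14 arrays of correlation under 0.85. In the first 5 panels the B rats lie lower than the impaired rats with overlap (Adrb3 medians 296.5 and 582), while Adra1d has its highest median in the B rats.

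The largest set of differences lay between the 16 B rats and the 10 impaired rats, both aged and both trained to the hidden platform. In it 7 of 36 receptor probe sets (19.4%) passed, all lower in B, where 6.20% of all tested probe sets passed as lower in B and 12.0% passed in either direction. They were the adrenergic Adrb3, Adra2a and Adra1a, the nicotinic Chrna4 and Chrna7, the muscarinic Chrm5 and the serotonergic Htr7. Of the 7, 5 lay in the dimmer 50% of tested probe sets, as did 27 of the 36 receptors, and there 10.5% of all probe sets passed as lower in B. Over the 36, 32 were lower in B, and the median difference was -0.55 (log2), against -0.03 over all tested probe sets. At an unadjusted p under 0.05 stood 17 receptors, 16 of them lower, against 32.1% of all probe sets. RNA from tissue cannot tell fewer cells of a type from less RNA per cell.

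Promoter sequence of 4 of these 7 genes was in RefSeq's table for the GRCr8 build of the rat genome. It is printed here, as the 250 bases 5′ of the annotated start, for 3 of them that passed by their brightest probe set, so that the letters upstream of genes lower together in the B rats can be compared. Capitals mark GGGCGG (a GC box) and TGACG (the 5 letters shared by cyclic AMP response elements) on either strand.
Chrna4 (chr3:188534527-188534776, minus strand): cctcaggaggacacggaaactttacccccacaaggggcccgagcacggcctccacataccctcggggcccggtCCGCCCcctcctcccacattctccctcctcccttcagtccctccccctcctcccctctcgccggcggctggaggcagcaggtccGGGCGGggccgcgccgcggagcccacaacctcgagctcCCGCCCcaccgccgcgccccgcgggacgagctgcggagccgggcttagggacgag
Adra2a (chr1:263066530-263066779, plus strand): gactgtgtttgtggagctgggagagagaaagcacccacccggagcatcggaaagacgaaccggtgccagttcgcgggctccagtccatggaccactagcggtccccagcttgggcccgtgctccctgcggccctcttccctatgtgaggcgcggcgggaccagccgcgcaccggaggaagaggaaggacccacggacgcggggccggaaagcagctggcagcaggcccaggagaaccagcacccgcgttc
Htr7 (chr1:243173049-243173298, minus strand): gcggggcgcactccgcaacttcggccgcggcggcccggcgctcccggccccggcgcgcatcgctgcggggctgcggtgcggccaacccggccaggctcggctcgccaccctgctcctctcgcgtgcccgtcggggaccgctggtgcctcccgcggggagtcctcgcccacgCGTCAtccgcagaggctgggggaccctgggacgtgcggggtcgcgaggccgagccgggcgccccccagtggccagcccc
The Chrna4 window held 3 matches to GGGCGG, the Htr7 window 1 to TGACG, and the Adra2a window none of either. Of 33469 rat promoter windows of this length, 30.5% held GGGCGG and 18.2% TGACG. The windows were rich in G and C, at 74.4% (Chrna4), 67.6% (Adra2a) and 80.8% (Htr7), beside a median of 51.2% over all windows. None of the 3 held TGACGTCA (1.59% of windows), CACGTG (5.59%) or TATAAA (12.9%), searched on both strands. The window of Chrna7, not printed, held 1 match to CACGTG and 1 to GGGCGG. Such matches describe letters only.

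Chrna4 had the largest difference. Impaired rats read 74.6, 98.7, 105, 112, 115, 182, 234, 245, 372 and 577, and B rats ran from 19.5 to 159.9 with a median of 47.6. All 16 B rats lay below the impaired mean, although the ranges overlapped. The log2 difference was -1.41 ± 0.37 (SE), a signal 2.66 times higher in impaired rats on the log2(signal + 15) scale (adjusted p = 0.0111, limma). It was -1.27 without the arrays of low correlation (adjusted p = 0.00671). Chrna7, which forms the homomeric nicotinic receptor prominent in hippocampus, passed by a second, dimmer probe set. There the impaired rats read 56.3, 69.7, 73.6, 91.2, 102, 128, 183, 239.9, 819 and 1276, and B rats ran from 40 to 135 with a median of 88.2. Impaired rats 8 and 83, both on arrays of low correlation, gave the 2 highest values. The difference was -0.94 ± 0.32 (SE) (adjusted p = 0.0445) and -0.32 without those arrays (adjusted p = 0.398). The brightest Chrna7 probe set differed by -0.39 ± 0.21 (SE) and did not pass.

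Adrb3 read 319.7, 397, 399.8, 404, 562, 602, 654, 759.8, 846 and 1181 in the impaired rats, and the B rats ran from 101 to 523.5 with a median of 296.5. All 16 B rats lay below the impaired mean, as on the other probe sets of the 12 counted above. The difference was -0.99 ± 0.25 (SE), or 1.98 times (adjusted p = 0.0109), and -0.83 without arrays of low correlation (adjusted p = 0.0174). Adra2a, the main alpha-2 receptor of the brain, read 130.3, 188, 213, 243, 265, 426, 472, 537, 1273 and 1406 in impaired rats. B rats ran from 94.6 to 338 with a median of 155. The 2 values over 1000 again came from impaired rats 8 and 83. The difference was -1.15 ± 0.34 (SE), or 2.22 times (adjusted p = 0.0231). It was -0.71 without the low arrays (adjusted p = 0.0628). The gene's 2 dimmer probe sets, fitted with no filter, differed by -0.65 and -0.44. Adra1a read 66.4, 102, 114, 146, 195, 327, 381, 459, 486.5 and 826 in impaired rats, while B rats ran from 42.3 to 196 with a median of 109. Its difference of -1.17 ± 0.40 (SE), or 2.26 times, was the closest to the threshold (adjusted p = 0.0454), and it was -0.83 without the low arrays (adjusted p = 0.105).

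Chrm5, the rarest muscarinic receptor of the brain, read 197, 281.5, 284, 349.8, 403, 532, 670.4, 893, 952 and 1825 in impaired rats. B rats ran from 71.4 to 342 with a median of 246, and the ranges overlapped. The impaired values of 1825 and 893 came from rats 8 and 83, on arrays of low correlation. The difference was -1.12 ± 0.34 (SE), or 2.18 times (adjusted p = 0.0275), and -0.80 without the low arrays (adjusted p = 0.0489). Htr7, a Gs-coupled serotonin receptor, read 81.5, 87.4, 113, 122.5, 139, 149, 149.6, 185, 243.5 and 831 in impaired rats. B rats ran from 23.9 to 338 with a median of 69.1, and 14 of 16 lay below the impaired mean. The difference was -1.04 ± 0.33 (SE), or 2.06 times (adjusted p = 0.0338), and -0.74 without the low arrays (adjusted p = 0.0884). A dimmer Htr7 probe set differed by -0.77 in the fit with no filter and did not pass.

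Without the 14 arrays of low correlation, 2 of which were impaired and none B, 3 of the 7 still passed (Chrna4, Adrb3 and Chrm5; 4.77% of all probe sets were then lower in B). The receptors' median difference was then -0.30, and 32 of 36 were still lower. Mean log2 over the 36 probe sets was 9.257 on the array of impaired rat 83 and 8.63 on that of rat 8. Over the other 8 impaired rats it ran from 7.473 to 8.43 (median 7.89), and over B rats from 7.17 to 7.944 (median 7.684). Leaving out impaired rat 8 or 83 alone left 2 calls, impaired rat 50 left 3, and B rats 90, 11 or 12 left 4 each, while leaving out impaired rat 52 gave 12. The signal of the spike-in controls ran from 9.62 to 16.7 (median 11.44, log2) in impaired rats and from 9.9 to 12.84 (median 10.2) in B rats. With it as a covariate none of the 7 passed (0 calls). Dim probe sets as a whole were lower in B: the median difference was -0.35 over the dimmer 50% of tested probe sets and 0.25 over the brighter 50%. The receptors' medians were -0.62 and -0.04 in the same sets.

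**Figure D4:**
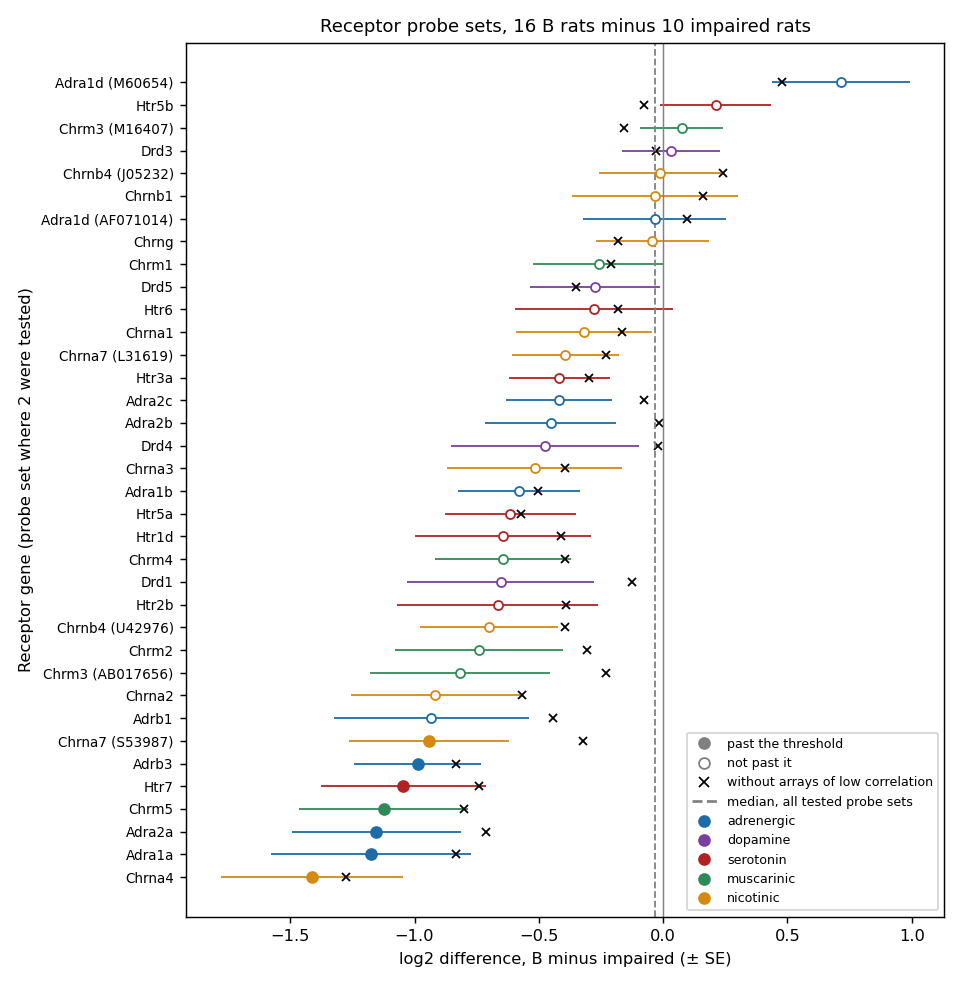
Log2 difference (x axis, B minus impaired, ± SE) of the 36 tested receptor probe sets (y axis), in order of size and coloured by family; filled points passed an adjusted p under 0.05, crosses give the value without the 14 arrays of low correlation and the dashed line is the median of all 5244 tested probe sets. All 7 filled points lie at -0.94 or lower, and the crosses of most receptors lie nearer to 0 than their points.

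By family, 8 of 9 adrenergic, 5 of 6 muscarinic, 10 of 10 nicotinic, 3 of 4 dopamine and 6 of 7 serotonin probe sets were lower in B, with medians of -0.58, -0.69, -0.45, -0.37 and -0.62. None of the dopamine receptors passed: Drd1 differed by -0.65 ± 0.38 (SE), Drd4 by -0.48 ± 0.38 (SE), Drd5 by -0.27 ± 0.26 (SE) and Drd3 by 0.03 ± 0.20 (SE). The single member higher in B at an unadjusted p under 0.05 was Adra1d, at 0.71 ± 0.28 (SE) (adjusted p = 0.0735), but its second probe set differed by -0.03 ± 0.29 (SE). The bright Chrm3 and Htr5b differed by 0.08 ± 0.17 (SE) and 0.21 ± 0.22 (SE).

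The 32 dim probe sets left out above were fitted with no filter. In that fit 13 of them, for 12 genes, passed as lower in B, where 29.2% of the 3496 left-out probe sets did. Over all 68 receptor probe sets 21 passed as lower, where 16.8% of 8740 did. Among the 13 were Htr1f (-1.42), Hrh2 (-1.19), Hrh1 (-0.84), Htr1a (-1.11), Drd2 (-0.89) and the dim second probe set of Drd3 (-1.53), named after their values were seen. The median of the 32 was -0.82, beside -0.76 over all left-out probe sets.

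Of 4 tested endothelial and mural markers all 4 were lower in B and 2 passed, Pecam1 and Kcnj8 (-1.38 and -1.07), while Kdr and Flt1, at -1.27 and -0.44, did not. The list's mean log2 level ran from 6.724 to 9.328 (median 7.466) in impaired and from 6.219 to 7.472 (median 6.609) in B rats. Of 8 interneuron markers 7 were higher in B, and Sst and Npy passed (0.90 and 0.67), while Gad2 was lower (-0.35). Of 4 skeletal muscle genes, which CA1 should lack, 3 were higher and Acta1 passed (0.64), while Ckm was lower (-0.71). Of the cholinergic and monoamine neuron markers 4 of 4 tested were lower in B and 0 passed. These marker values include the low arrays. The part of the marker genes in the receptor differences was not tested.

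Whether learning ability in aged rats went with receptor RNA was addressed by the impaired and unimpaired rats. No receptor passed (0 of 36), and neither did any other probe set (0% of 5244, limma). At an unadjusted p under 0.05 stood 9 receptors, all higher in impaired rats, or 25% beside 12.9% of all probe sets. The receptors' median difference was 0.51, against 0.04 over all tested probe sets, and 29 of 36 were higher. Without the low arrays the median was 0.36 and 11 stood at an unadjusted p under 0.05, none past the adjusted threshold. Over all probe sets the median was then 0.06, with 13.4% at that unadjusted p, and over the dimmer 50% it was 0.17.

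The smallest p belonged to Adra2c, an alpha-2 receptor. Impaired rats read 272, 284, 287, 293, 308, 329.9, 340.0, 537, 1087 and 1089, and unimpaired rats ran from 96.1 to 369.7 with a median of 275. All 10 impaired rats lay above the unimpaired mean, but rats 8 and 83 alone exceeded 1000. The difference was 0.80 ± 0.25 (SE) (unadjusted p = 0.00204, adjusted p = 0.312, limma), and 0.38 without the low arrays. Chrna2, a nicotinic subunit known in a class of hippocampal interneurons, differed by 1.19 ± 0.39 (SE) and by 1.01 without the low arrays (adjusted p = 0.312 and 0.216). Htr7 ran from 26.1 to 269 with a median of 79.9 in unimpaired rats and from 81.5 to 831 with a median of 144 in impaired rats, a difference of 0.98 ± 0.34 (SE) (adjusted p = 0.312) and of 0.60 without the low arrays. Adra1b ran from 43.7 to 201 with a median of 84.2 in unimpaired and from 71.8 to 300.2 with a median of 167 in impaired rats, a difference of 0.75 ± 0.28 (SE) (adjusted p = 0.314) and of 0.66 without the low arrays. Adrb3 differed by 0.69 ± 0.27 (SE), and by 0.60 without them. Dim probe sets again leaned the same way, with a median of 0.31 over the dimmer 50% of tested probe sets and -0.22 over the brighter 50%.

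Between the B and the unimpaired rats no receptor passed (0 of 36), where 0.0572% of all probe sets did. The receptors' median difference was -0.09, against 0.01 over all. The 5 smallest p-values belonged to Adra1d (0.52 ± 0.26 (SE)), Adra2c (0.38 ± 0.20 (SE)), Chrna4 (-0.46 ± 0.34 (SE)), Drd3 (0.25 ± 0.18 (SE)) and Adra2a (-0.39 ± 0.31 (SE)). Without the low arrays these were at 0.40, 0.30, -0.26, 0.28 and -0.24, and again 0 of 36 passed. The 3 comparisons among hidden platform aged rats share their animals in pairs and are not independent of each other.

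Age was compared over 63 arrays, 44 aged without the B rats and 19 young, with training as an additive factor. No receptor passed (0 of 36), where 5.13% of all probe sets did. The receptors' median was -0.08, beside -0.05 over all tested probe sets. At an unadjusted p under 0.05 stood 5 receptors, or 13.9% beside 20.8% of all probe sets. These were Chrm3 at -0.31 ± 0.13 (SE), Adra1d at 0.55 ± 0.24 (SE), and the muscle-type nicotinic subunits Chrnb1 at -0.52 ± 0.24 (SE), Chrna1 at -0.45 ± 0.22 (SE) and Chrng at -0.35 ± 0.17 (SE). Their adjusted p-values ran from 0.156 to 0.223. Without the low arrays they were at -0.27, 0.44, -0.45, -0.44 and -0.33.

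Chrm3 had medians of 2580 (young cage), 2284 (young yoked), 2856 (young visible) and 2636 (young hidden), and of 1691 (aged cage), 2070 (aged yoked), 1997 (aged visible), 2162 (unimpaired) and 2285 (impaired). Aged medians were the lower in each training group. Below the mean of young rats of the same training lay 37 of 44 aged rats. In the log2 means, however, the difference was -0.03 ± 0.35 (SE) in cage controls. It was -0.17 ± 0.26 (SE) in yoked, -0.47 ± 0.29 (SE) in visible platform and -0.42 ± 0.22 (SE) in hidden platform rats. Among young cage rats, only the value of 919 came from an array of ordinary correlation. The ranges overlapped, as aged yoked rats reached 3292 and young cage rats fell to 919. Chrna1 read 162, 189 and 213.5 in young cage rats and 31.3, 116, 154, 166 and 211 in aged cage rats. It ran from 84.4 to 773 with a median of 229.6 in young hidden platform rats. Aged hidden platform rats ran from 48.5 to 226 with a median of 99.1 (unimpaired) and from 42.2 to 644 (impaired). The Chrna1 difference was -0.60 ± 0.55 (SE) in cage, -0.91 ± 0.34 (SE) in hidden platform and -0.57 ± 0.46 (SE) in visible platform rats. In yoked rats it was 0.36 ± 0.41 (SE). Drd3, picked after its values were seen, read 1561, 1834 and 2497.5 in young cage rats. In aged cage rats it read 741, 795, 1346, 1364 and 1528. The values 1834, 2497.5 and 741 came from arrays of low correlation. The Drd3 difference was -0.79 ± 0.43 (SE) in cage and -0.21 ± 0.27 (SE) in hidden platform rats. It was -0.37 ± 0.36 (SE) in visible platform and -0.02 ± 0.32 (SE) in yoked rats. Over all training groups it was -0.28 ± 0.16 (SE) (adjusted p = 0.334, limma).

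Without the low arrays a single receptor passed with age. Htr3a was at -0.45 ± 0.15 (SE) in aged minus young rats (adjusted p = 0.0345, limma), beside 13.9% of all probe sets passing in that fit. With all arrays its difference was -0.28 ± 0.16 (SE) (adjusted p = 0.33). By family, the median aged minus young difference was -0.05 for adrenergic, -0.05 for muscarinic, -0.20 for nicotinic, -0.30 for dopamine and 0.01 for serotonin receptors. Among 15 genes with several probe sets, 4 had all probe sets on the same side for age. For impaired against unimpaired rats 14 did, and for B against impaired rats 11. Dim probe sets as a whole were shifted in the last 2 comparisons. Over all 3496 left-out probe sets the medians with no filter were 0.62 and -0.76, beside 0.04 for age. The part of that shift in these counts was not tested.

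**Figure D5:**
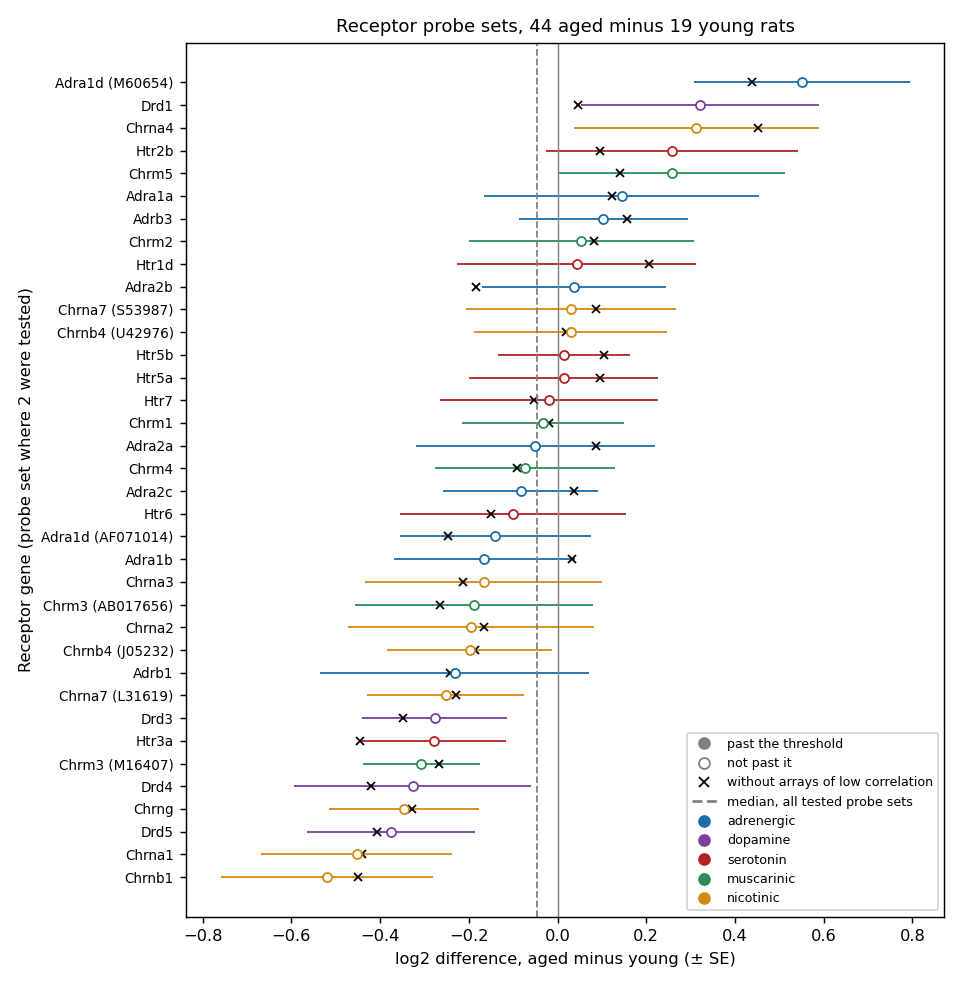
Log2 difference (x axis, aged minus young, ± SE) of the 36 tested receptor probe sets (y axis) over 44 aged and 19 young rats, in order of size and coloured by family; no point is filled because none passed an adjusted p under 0.05, crosses give the value without the 14 arrays of low correlation and the dashed line is the median of all 5244 tested probe sets. The points spread from -0.52 (Chrnb1) to 0.55 (Adra1d), with the 2 Adra1d probe sets on opposite sides of 0.

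Whether the age difference varied by training was tested as an interaction on 3 degrees of freedom. No receptor passed (0 of 36), where 0.305% of all probe sets did, and 0 receptors stood at an unadjusted p under 0.05, where 14.3% of all probe sets did. The smallest p-values belonged to Chrna1, Adrb3, Adra1d, Drd4 and Chrna7 (adjusted p = 0.506 to 0.599). Without the low arrays 0 of 36 passed, and the smallest adjusted p of a receptor was 0.172. Within each training group the receptors' median aged minus young difference was -0.57 in cage controls (5 aged, 3 young), -0.10 with a hidden platform, -0.12 with a visible platform and 0.14 in yoked rats. Over all tested probe sets these medians were -0.27, -0.05, -0.03 and 0.06. All these medians include the low arrays, among them 2 of the 3 young cage arrays. Mean log2 over the 36 probe sets was 8.059 and 8.943 on those 2 and 7.595 on the remaining young cage array. In aged cage rats it ran from 7.593 to 7.988 (median 7.679).

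Training was compared within each age. In aged rats, hidden platform training (23 rats, impaired and unimpaired given equal weight) against visible platform gave 0 of 36 receptors, where 0.0191% of all probe sets passed. The second probe set of Adra1d, singled out after its value was seen, was the only one at an unadjusted p under 0.05 (-0.76 ± 0.32 (SE), adjusted p = 0.35). The values of smallest p were Htr3a (-0.45 ± 0.24 (SE)), Chrna4 (0.70 ± 0.40 (SE)), Htr5a (-0.43 ± 0.29 (SE)), Chrnb4 (-0.45 ± 0.31 (SE)) and Adra2b (-0.41 ± 0.30 (SE)). Of the 8 visible platform arrays 4 were of low correlation, and without the low arrays the receptors' median turned from -0.18 to 0.13, as that of all dim probe sets did (-0.10 to 0.05). Htr3a then stood at -0.06, Chrna4 at 0.96, Adra2b at -0.19, Htr5a stood at 0.49 and Chrnb4 at 0.12. Against yoked aged rats no receptor passed (0 of 36; 0% of all), and 0 stood at an unadjusted p under 0.05. The values of smallest p were Chrna1 at -0.55 ± 0.31 (SE), Drd3 at -0.35 ± 0.23 (SE), Htr7 at 0.46 ± 0.33 (SE), Chrng at -0.34 ± 0.26 (SE) and Drd5 at -0.32 ± 0.28 (SE). They were at -0.41, -0.22, 0.18, -0.23 and 0.01 without the low arrays. Against aged cage rats 0 of 36 passed as well (0% of all). The nicotinic subunit Chrna3, at 1.17 ± 0.46 (SE), was the only receptor at an unadjusted p under 0.05 (p = 0.0151, adjusted p = 0.421, limma). It was followed by Chrna7 (0.44 ± 0.29 (SE)), Drd3 (0.38 ± 0.28 (SE)), Adra2c (-0.34 ± 0.29 (SE)) and Adra1a (0.50 ± 0.54 (SE)). The 5 without the low arrays were at 1.14, 0.07, 0.25, -0.42 and 0.16.

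In young rats, hidden against visible platform training (6 and 4 rats) gave no receptor past the threshold (0 of 36; 0% of all). The values of smallest p were Htr7 at -0.95 ± 0.57 (SE), Chrm5 at -0.74 ± 0.47 (SE), Adrb3 at -0.61 ± 0.40 (SE), Chrm1 at -0.39 ± 0.36 (SE) and Htr2b at 0.65 ± 0.61 (SE). These 5 were at -0.94, -0.46, -0.14, -0.06 and 0.19 without the low arrays. Against young yoked rats 0 of 36 passed (0% of all), with Adra1b at 0.74 ± 0.47 (SE), Chrna1 at 0.69 ± 0.43 (SE), Chrna4 at 0.76 ± 0.50 (SE), Adra1d at 0.69 ± 0.58 (SE) and Adrb3 at -0.40 ± 0.36 (SE). Leaving out the low arrays put these at 0.53, 0.36, 0.38, 1.10 and -0.39. Against the 3 young cage rats 0 of 36 passed, where 5.28% of all probe sets did, and 4 stood at an unadjusted p under 0.05, or 11.1% beside 23.8% of all. Drd4, a Gi-coupled dopamine receptor, read 200.5, 287 and 539 in young cage rats and ran from 50.1 to 200.3 with a median of 95.2 in young hidden platform rats. The groups just failed to overlap, and the difference was -1.50 ± 0.56 (SE) (adjusted p = 0.102, limma). Adrb3 differed by -1.29 ± 0.44 (SE), Chrnb4 by -1.16 ± 0.49 (SE), Adra1d by 1.47 ± 0.71 (SE) and Drd1 by 1.00 ± 0.54 (SE). Of the 3 cage arrays 2 were of low correlation. With the remaining array, assumed to vary like the other groups, and the 5 remaining hidden platform arrays, the receptors' median turned from -0.24 to 0.09, as that of all dim probe sets did (-0.29 to 0.04). Adrb3 then stood at -0.45, Drd4 at -0.88, Chrnb4 at -0.37, Adra1d at 1.75 and Drd1 at 0.72.

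Genes that make, carry or break down the transmitters, and those that pass on or end receptor signals, were read from 3 lists of 76 genes, of which 56 were on the array and 40 tested. With age 0 rose and 0 fell. The smallest unadjusted p-values there were those of Rgs12, which shortens G protein signals (0.38), Ppp1r1a, a protein kinase A target (-0.38), and Gnaz, a Gi-type alpha subunit (0.34). Between impaired and unimpaired rats 0 rose and 0 fell as well. The smallest there were Slc18a3, the vesicular acetylcholine transporter (0.68), Slc6a2, the noradrenaline transporter (0.77), and Ppp1r1a (-0.64). Between B and impaired rats 5 of the 40 passed, close to the 12.0% of all probe sets, and are named after their values were seen. Higher in B were Ppp1r1a (1.10), Gnas, the Gs alpha subunit (1.17), and the G protein regulators Rgs14 (0.73) and Rgs8 (0.57), while Slc6a2 was lower in B (-1.03). By list, 12 of 15 genes of synthesis, transport and breakdown and 5 of 8 of desensitisation were lower in B, and 12 of 17 G proteins and effectors were higher. Dim and bright probe sets as a whole also went opposite ways in this comparison, as given above. The values of all 3 lists include the low arrays.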

How the data were processed

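RNA of the CA1 cell layer was measured on 79 arrays, 1 per rat. The deposited values are MAS5 signal, a linear intensity scaled by the authors, per the submitters' processing notes; 46 values were 0. No 2 arrays were copies (highest correlation between a pair 0.976). Of 8799 probe sets, 59 controls and then the 40% of lowest mean signal were left out, which left 5244 of 8740.

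Tests used limma 3.58.1 in R 4.3.3 (lmFit, eBayes with trend) on log2(signal + 15), two-sided, with Benjamini-Hochberg adjustment over all 5244 and a threshold of 0.05, in 12 comparisons. The code was tested on simulated data. Log2 differences on this scale understate the change of dim probe sets. Named are members past the threshold, else the 5 genes of smallest unadjusted p. Members and lists were chosen with earlier results of these data known.

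Alternatives were the pseudocount, filter, normalization, variance model, array weights, quality covariates, the arrays in the fit, other probe sets and single animals. The fit without 14 arrays of low correlation was added after the data were seen. Precision is limited by the number of arrays in a group.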

Additional observations from a re-analysis of the deposited data

Results flagged for a closer look

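In 7 of the 98 groups of 4 to 10 rats examined, over 14 receptors, a single rat lay far from the others of its group, where chance flags about 1 in 20 independent groups. These 98 are 14 receptors, picked by their p-values, in the same 7 groups of rats, so they are not independent and that rate is no test of the 7. In 6 of them that rat was the lowest and in 1 the highest, and 5 of the 7 values came from arrays of low correlation.

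In young hidden platform rat 39, Adra1d read 90.2, and the next value was 426.8. In young visible platform rat 30, Htr3a read 296.8 (next 762.7) and Drd3 read 823.7 (next 2257.4). Htr7 read 831.4 in impaired rat 8, against 243.5 in the next impaired rat. In aged yoked rat 63, Adra2c read 118.7 (next 253.4). The other two values came from arrays of ordinary correlation: Htr7 read 7.7 in young yoked rat 59 (next 75.5), and Adra1b read 38.9 in aged yoked rat 25 (next 116.7).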

How the results depend on the processing

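The count of receptors past the threshold across the 10 groups, 4 as reported, was 1 with quantile normalization (14.5% of all probe sets passed), 2 with median centring (19.3%), 23 with array weights (74.8%), 1 with a covariate for the 3' to 5' ratio (14.5%) and 1 with one for spike-ins (20.3%), and ran from 1 to 6 when single rats were left out. Between B and impaired rats 7 receptors passed as reported, all lower in B. Counted in either direction, the number was 21 with no filter (21.3% of all passed), 3 with the 60% filter (11.7%) and 4 with quantile normalization (7.95%). The count was 3 with array weights (14.9%), 0 with the spike-in covariate (2.21%) and 3 without the 14 arrays of low correlation (9.34%). It ran from 2 to 12 when single rats were left out. With array weights, 7 receptors passed with age (21.6% of all), 4 in the interaction (35.3%), 2 in aged hidden against visible platform rats (9.78%), 1 in B against unimpaired rats (8.31%) and 3 in young hidden against cage rats (28.3%), the last from weights that did not converge. With age, 1 passed with the spike-in covariate (9.5% of all) and 1 without the 14 arrays (13.9%). In young hidden against cage rats, 1 passed with quantile normalization (5.51% of all) and 1 in a single fit over all 79 arrays (14.3%), and the count ran from 0 to 1 when single rats were left out. Array weights did not converge in 3 of the 12 comparisons, those of young rats. The causes were not tested. No receptor passed between impaired and unimpaired rats under any of the 12 alternatives or with any single rat left out. No paired analysis was possible because the animal numbers are not shared between groups.

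Signs turned only for members that had not passed. By another probe set of the gene, Adra1d was at -0.14 with age, -0.18 in young hidden minus yoked, -0.0032 in young hidden minus cage and -0.21 in B minus unimpaired rats. In aged hidden minus visible platform rats Htr3a was at 0.087 by another probe set, Htr5a at 0.25 with array weights and 0.49 without the 14 arrays, and Chrnb4 at 0.12 without them. In aged hidden minus yoked rats Drd3 was at 0.31 and Htr7 at -0.26 by another probe set, and Drd5 at 0.077 with array weights and 0.010 without the 14 arrays. Chrna7 was at -0.065 in aged hidden minus cage rats by another probe set. In young hidden minus visible platform rats Adrb3 was at 0.053 and Chrm1 at 0.060 with array weights that did not converge, and Chrm1 at 0.14 by another probe set. In young hidden minus cage rats Chrnb4 was at 0.18 and Drd1 at -0.31 and -0.13 by other probe sets. Drd3 was at -0.48 in B minus unimpaired rats by another probe set.

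Of the 7 receptors lower in B, Adrb3 and Chrna4 lost the call only with the spike-in covariate (adjusted p = 0.0894 and 0.068, limma) and in none of the 26 fits without a single rat. Adra2a lost it in 4 of 14 alternatives, Chrm5 in 2 of 12, Htr7 in 6 of 12, the second probe set of Chrna7 in 9 of 13 and Adra1a in 7 of 11. With single rats left out, these 5 lost it in 2, 3, 7, 15 and 14 of the 26 fits, in the same order. Dim signal limits these results: 32 of the 68 receptor probe sets lay under the filter.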
